A study of Mus musculus with 6 samples.

Results

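The arms of miR-219a and miR-338 were followed across 6 small RNA libraries of embryonic mouse brain. They are 5 mature miRNAs, taken by their exact names from the 1915 listed in each library: mmu-miR-219a-5p, mmu-miR-219a-1-3p, mmu-miR-219a-2-3p, mmu-miR-338-3p and mmu-miR-338-5p. The libraries were made from whole brain RNA of wild-type C57BL/6 embryos at E15.5, 3 from females and 3 from males, and the study asked which miRNAs differ between the sexes at this stage. No treatment or allele separated the groups, and each library pooled the RNA of 2 to 3 embryos of a sex (named female 1 to 3 and male 1 to 3). The replicate was therefore a pool, and no p-value measures the spread between embryos. Those of the count fits rest on a spread between pools that is estimated partly across all miRNAs, not from each arm alone.

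In the central nervous system miR-219 and miR-338 rise as oligodendrocyte progenitors mature, and the arms known for this are miR-219a-5p and miR-338-3p. Both favour maturation by repressing transcripts that hold cells in a progenitor or neuronal state, among them transcripts of transcription factors and of a growth factor receptor. E15.5 precedes myelination in the mouse brain. A miRNA precursor is a hairpin whose 5p and 3p arms can each be kept as a mature miRNA, and the arms of a hairpin are cut from the same molecule. miR-219a-5p comes from both Mir219a-1 and Mir219a-2, while the 3p arms tell these precursors apart.

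The sequences are shown because the arms of a hairpin were counted separately and carry different seeds, the bases 2 to 8 that pair with targets. They were taken from RefSeq (GRCm38.p6), which had an entry for 4 of the 5 names, and run 5′ to 3′ with the seed in capitals.
miR-219a-5p: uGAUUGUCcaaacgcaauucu
miR-219a-1-3p: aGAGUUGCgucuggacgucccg
miR-338-3p: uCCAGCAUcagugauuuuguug
miR-338-5p: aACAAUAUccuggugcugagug
No seed was shared among these 4, nor with any other mature miRNA in the table. Their lengths were 21 bases for miR-219a-5p and 22 bases for the others, so read counts were compared between them as counts of molecules read, without a correction for length. The share of G and C was 38.1% in miR-219a-5p, 63.6% in miR-219a-1-3p, 40.9% in miR-338-3p and 45.5% in miR-338-5p.

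The precursors were placed on mm9, the build named for the files, by matching the RefSeq hairpins to that genome. Mir219a-1 is on the minus strand of chromosome 17, from 34161928 to 34162037, partly within an exon of a non-coding transcript that also bears the name Mir219-1. Its nearest coding genes, Ring1 and H2-Ke6, lie 303 and 941 bp away. Mir219a-2 is intergenic, on the minus strand of chromosome 2 from 29701151 to 29701247, and 629 bp from Urm1. Mir338 is on the minus strand of chromosome 11, from 119876079 to 119876176, in an intron of Aatk and on the strand of that gene, which encodes a kinase of the nervous system.

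The total per library ranged from 14802675 to 59362011 reads on miRNAs, and 660 to 915 miRNAs had a read. Female library 2 was the deepest and had the fewest miRNAs detected, whereas female library 1 was the shallowest with 831 detected. Other miRNA groups also differed between the sexes. The 8 neuronal miRNAs summed to 22526 to 23522 CPM (reads scaled to a library total of 1000000) in the female libraries and 18116 to 19156 CPM in the male libraries. Those of hindbrain and spinal cord (Hox clusters) summed to 8928 to 12707 against 1761 to 2178 CPM. Lists of other tissues went the opposite way, with 388 to 1180 against 5497 to 6139 CPM for skeletal muscle, 429 to 1133 against 7990 to 8284 CPM for epithelium and 4470 to 12476 against 19223 to 23024 CPM for mesenchyme. Small RNA counts hold no mRNA markers, so the oligodendrocyte lineage itself was not checked, and in RNA of a whole organ fewer cells of a type and less RNA per cell cannot be told apart.

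All 5 arms were read in every library, and together they took 0.0602% to 0.0814% of the reads. The order of their levels was led by miR-219a-2-3p in all 6 libraries. miR-338-5p and miR-219a-1-3p followed, with miR-338-5p higher in all but female library 2. miR-219a-5p came next and miR-338-3p last in all 6 libraries, so the arms known from oligodendrocytes were the rarest. miR-219a-5p was 1.79 to 7.77 times as high as miR-338-3p within a library.

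**Figure D1:**
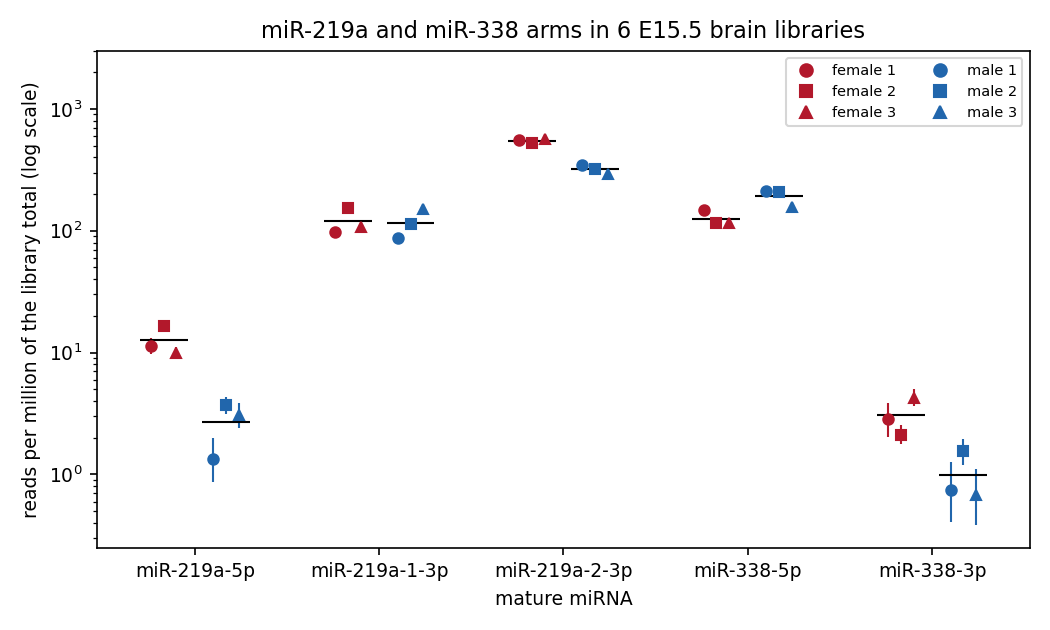
Level of the 5 arms in each library, in CPM on a log scale. Points are libraries (red female, blue male, marker shape the replicate number), vertical lines are exact 95% binomial intervals (counting error only) and black bars are group means. miR-219a-5p and miR-338-3p sit lowest, with the female libraries above the male libraries for both.

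miR-219a-5p was read 169, 979 and 358 times in females 1, 2 and 3, and 25, 162 and 73 times in males 1, 2 and 3. These counts correspond to 11.4, 16.5 and 9.999 CPM in the females and 1.34, 3.69 and 3.09 CPM in the males. Every female library was above every male library, and male library 1 was the lowest. The exact 95% binomial interval of male library 1 ran from 0.866 to 1.98 CPM and that of female library 3, the lowest female, from 8.99 to 11.1 CPM, and such intervals cover counting error only, since no molecular identifiers are named. Mean levels were 12.6 ± 3.41 CPM in females and 2.71 ± 1.22 CPM in males (SD, n = 3 each), 4.67-fold higher in females. In edgeR's quasi-likelihood fit the log2 fold change, male over female, was −2.33 (SE 0.76, Benjamini-Hochberg adjusted p = 0.0586 over 1120 miRNAs), which missed the threshold of 0.05. Over 16 other settings the log2 fold change stayed between −2.69 and −1.97 and the adjusted p ranged from 0.000348 to 0.278, and 5 settings passed the threshold: DESeq2, 1 RUVr factor in edgeR or in DESeq2, at least 10 reads required in every library, and the fit without female library 2 (edgeR adjusted p = 0.0172). The paper used DESeq2 with RUVr, without stating the number of factors. It shows miR-219a-5p with Hes5 as an example from its pairs of sex-biased miRNAs and sex-biased targets.

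miR-219a-2-3p, the 3p arm of Mir219a-2, was the most abundant of the 5. Its levels were 554, 525 and 562 CPM in females 1, 2 and 3, from 8204, 31172 and 20135 reads, and 344, 322 and 292 CPM in males 1, 2 and 3, from 6431, 14162 and 6900 reads. The libraries of a sex lay close together and the sexes did not overlap. With means of 547 ± 19.6 and 320 ± 26.2 CPM (SD, n = 3 each), the level was 1.71-fold higher in females. This was the only arm past the threshold, with a log2 fold change of −0.90 (SE 0.19, edgeR adjusted p = 0.00252). The call held in 13 of 14 alternatives, with adjusted p from 5.18e-08 to 0.0631, and was lost without male library 1 (log2 fold change −0.89, edgeR adjusted p = 0.0631), a fit that called 30 miRNAs in all.

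miR-219a-1-3p, the 3p arm of Mir219a-1, showed no such separation. It was at 98.4, 153 and 106 CPM in females 1, 2 and 3 and at 86.6, 114 and 150 CPM in males 1, 2 and 3. The ranges overlapped nearly throughout, around means of 119 ± 29.3 and 117 ± 31.9 CPM (SD, n = 3 each). The log2 fold change of −0.16 (SE 0.27, edgeR adjusted p = 0.811) was within the spread between libraries. It turned to 0.13 without female library 2 and to 0.06 without male library 1.

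miR-338-5p was the only arm higher in males. It was at 147, 115 and 115 CPM in females 1, 2 and 3 and at 213, 209 and 156 CPM in males 1, 2 and 3, from 2177 to 9174 reads. The sexes did not overlap, although female library 1 and male library 3 were close. The means were 126 ± 18.4 and 193 ± 31.8 CPM (SD, n = 3 each), 1.53-fold higher in males, and the log2 fold change of 0.49 did not pass the threshold (SE 0.22, edgeR adjusted p = 0.202, 0.0370 to 0.651 over 16 alternatives). The alternatives below 0.05 were both fits with 1 RUVr factor, in which the median log2 fold change of all miRNAs had moved from −0.02 to 0.27 and 0.29. Relative to that median, miR-338-5p stood at 0.51 in the reported fit and at 0.23 in either RUVr fit. Its own fitted change was 0.50 with RUVr in edgeR and 0.52 with RUVr in DESeq2, near the reported 0.49. What lowered the adjusted p there was not tested.

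miR-338-3p was the rarest arm, with 42, 126 and 153 reads in females 1, 2 and 3 and 14, 68 and 16 reads in males 1, 2 and 3. Its levels were 2.84, 2.12 and 4.27 CPM in the females and 0.749, 1.55 and 0.677 CPM in the males. The sexes did not overlap, but the exact 95% intervals of female library 2 (1.77 to 2.53 CPM) and male library 2 (1.202 to 1.96 CPM) did. The means were 3.08 ± 1.10 and 0.992 ± 0.483 CPM (SD, n = 3 each), 3.10-fold higher in females. The fitted log2 fold change of −1.71 (SE 1.56) did not pass the threshold (edgeR adjusted p = 0.559, and 0.0797 to 0.999 in the 15 alternatives that gave one). The lowest of these, at a log2 fold change of −1.75, came from the edgeR fit whose filter asked for 10 or more reads per library. What set the size of the SE was not tested.

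One call among the 5 arms, miR-219a-2-3p, thus stood beside 8.48% of the 1120 miRNAs tested, or 5.27% counting those higher in females. Levels of 4 of the 5 arms did not overlap between the sexes, against 23.9% of all miRNAs tested. Of these, 3 were higher in females (8.57% of all) and 1 in males (15.4% of all). The same 4 arms were without overlap when CPM was scaled by TMM factors. The 1120 miRNAs include 232 with 0 reads in all libraries of a sex, whereas all 5 arms were read in every library. The share without overlap among miRNAs read as deeply as the arms was not computed.

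**Figure D2:**
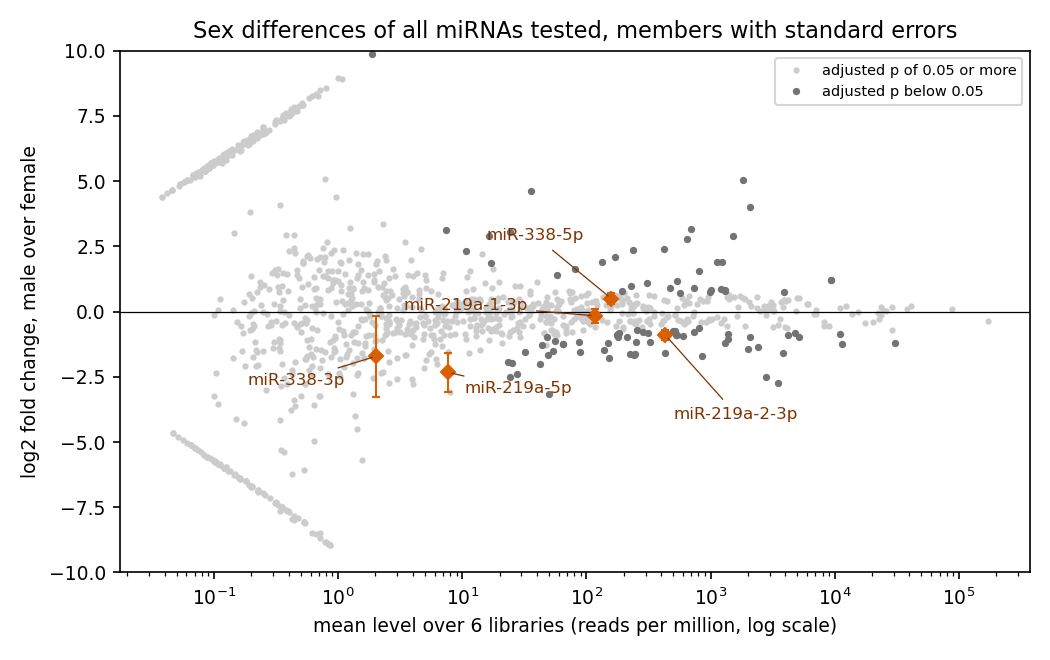
Log2 fold change, male over female, against the mean level over the 6 libraries (CPM, log scale) for all 1120 miRNAs tested. Orange diamonds with bars of 1 standard error are the 5 arms, and dark points are miRNAs with an edgeR adjusted p below 0.05. The rarer arms, miR-338-3p and miR-219a-5p, have the larger changes and the wider errors, and miR-219a-2-3p, at −0.90, lies among the miRNAs that passed. The 232 miRNAs with 0 reads in all libraries of a sex lie in the oblique rows, where the fold change depends on the prior count.

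Because the arms of a hairpin are counted in the same library, their ratio does not depend on how libraries are scaled. miR-219a-5p made up 1.72%, 2.38% and 1.47% of all miR-219a reads in females 1, 2 and 3 and 0.310%, 0.838% and 0.694% in males 1, 2 and 3. The 3p arms of the family were therefore 41.1 to 66.9 times as frequent as the 5p arm in females and 118 to 322 times in males. All female shares were above all male shares, by a log2 ratio, male minus female, of −1.69 (SE 0.48). The two-sided exact permutation test gave p = 0.1, the smallest that 3 libraries against 3 allow, and 0.2 after adjustment over the 4 ratios examined.

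At miR-338 the rare arm was the 3p arm, whereas at miR-219a it was the 5p arm. It made up 1.89%, 1.82% and 3.57% of miR-338 reads in females 1, 2 and 3 and 0.350%, 0.736% and 0.432% in males 1, 2 and 3. All 3 female shares were above the male shares. Exact 95% binomial intervals ran from 1.52% to 2.16% for the lowest female share and from 0.572% to 0.932% for the highest male share. The log2 ratio of 3p to 5p was lower by 2.26 in males (SE 0.45, two-sided exact permutation p = 0.1, adjusted p = 0.2). In this hairpin the 3 male libraries were above the females for miR-338-5p and below them for miR-338-3p.

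The 3p reads of miR-219a can also be split by precursor. These are shares of reads, and whether they equal the balance of the precursors was not tested. miR-219a-2-3p made up 84.9%, 77.5% and 84.1% of the 3p reads of the family in females 1, 2 and 3 and 79.9%, 73.9% and 66.1% in males 1, 2 and 3. The sexes overlapped, with male library 1 above female library 2, and the log2 ratio differed by −0.74 (SE 0.37, two-sided exact permutation p = 0.2, adjusted p = 0.267), or by −0.48 without male library 3. The ratio of miR-219a-5p to miR-338-3p differed by −0.65 (SE 0.64, two-sided exact permutation p = 0.5, adjusted p = 0.5), and by −0.20 without female library 2, −0.36 without male library 1, −1.07 without female library 3 and −1.03 without male library 3. A p above the threshold does not show that the sexes had equal ratios.

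**Figure D3:**
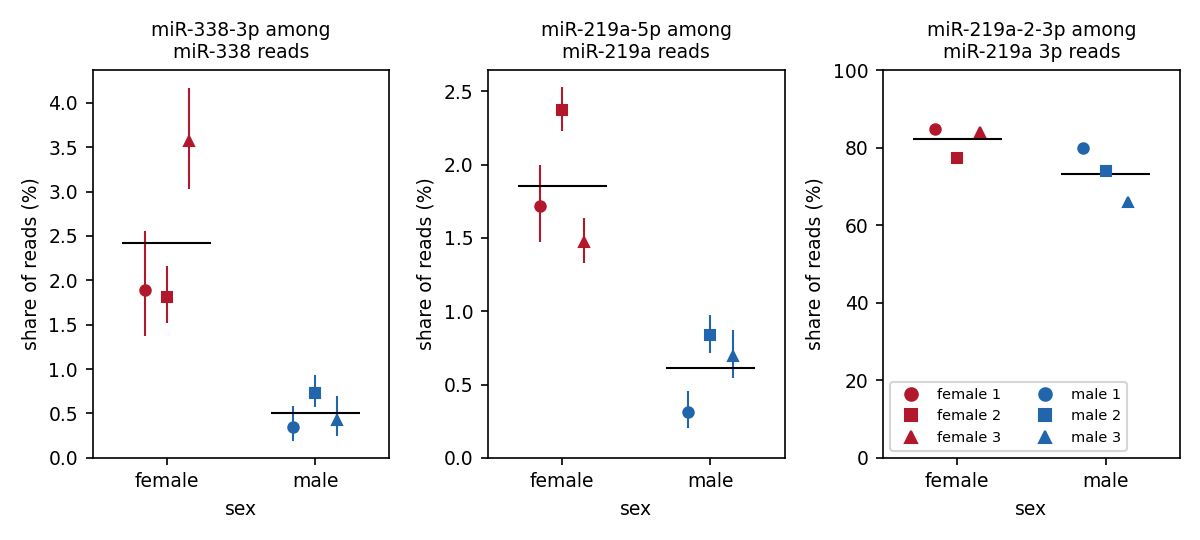
Share of reads (%) taken by miR-338-3p among both miR-338 arms, by miR-219a-5p among all 3 miR-219a arms, and by miR-219a-2-3p among both miR-219a 3p arms, by sex. Points are libraries with exact 95% binomial intervals (counting error only) and black bars are group means. The sexes separate in the left and middle panels and overlap in the right panel.

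Separation of arm ratios was common in these libraries. Among 151 precursors with at least 10 reads on both arms in every library, the ratio of arms did not overlap between the sexes in 43, or 28.5%. The absolute difference of the log2 ratio had a median of 0.41 and a 90th percentile of 1.23, and miR-338, at 2.26, was second in size to miR-18b. This order did not weigh read depth, and miR-338-3p had only 14 and 16 reads in male libraries 1 and 3. The miR-219a arms were not in that set, which paired only names that differ in the arm alone.

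The share of G and C in the mature sequence moved with the sex difference. Where the mean was 100 reads or more, the median log2 fold change was −0.82 for the 84 with up to 40% G and C, of which 28 were called higher in females and 3 in males. It was −0.17 for 204 miRNAs above 40% and up to 50%, 0.26 for 111 above 50% and up to 60%, and 0.20 for 75 above 60%. miR-219a-5p lies in the lowest band and miR-219a-1-3p in the highest, while both arms of miR-338 lie in the band of 40% to 50%. With a GC offset per library, the log2 fold change was −2.12 for miR-219a-5p (edgeR adjusted p = 0.123), −0.54 for miR-219a-1-3p (0.266), −1.38 for miR-338-3p (0.733) and 0.58 for miR-338-5p (0.133). The fitted changes of miR-338-3p and miR-338-5p then differed by −1.95, against −2.20 in the reported fit, and those of miR-219a-5p and miR-219a-1-3p by −1.58, against −2.17. miR-219a-2-3p was not in the fit with the offset.

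**Figure D4:**
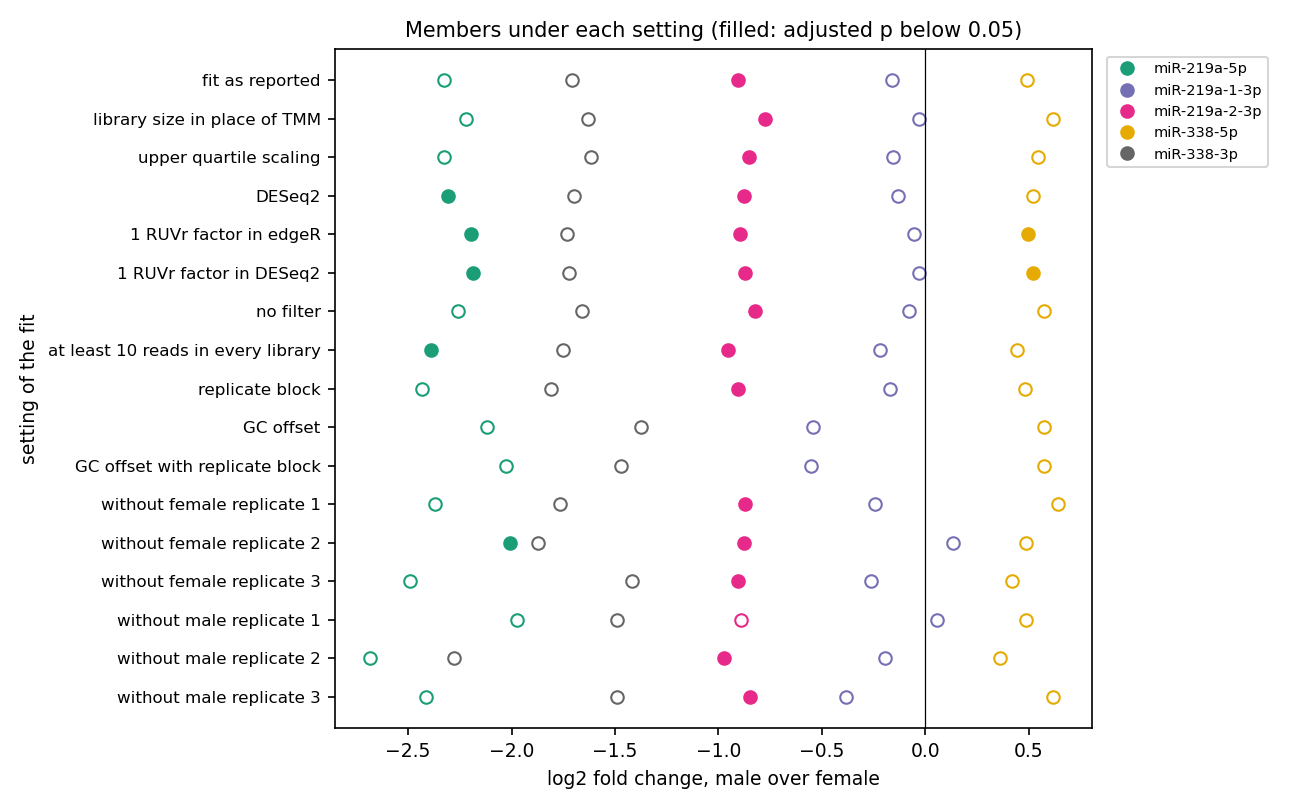
Log2 fold change, male over female, of the 5 arms in the reported edgeR fit and under each alternative. Filled circles have an adjusted p below 0.05 and open circles do not, and the vertical line marks no change. miR-219a-2-3p is filled in every fit that held it except that without male replicate 1, and miR-219a-1-3p is the only arm that crosses the line.

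Opposite-strand hairpins overlap these precursors. Mir219c lies opposite Mir219a-1, Mir219b opposite Mir219a-2 and Mir3065 opposite Mir338, and their mature miRNAs overlap miR-219a-5p, miR-219a-1-3p and miR-338-3p by 20 or 21 bases. miR-219c-5p, opposite miR-219a-1-3p, had 21 to 204 reads in the 6 libraries (1.12 to 4.24 CPM), with a log2 fold change of −0.31 that did not pass the threshold (SE 1.18, edgeR adjusted p = 0.927). Its partner miR-219c-3p had 16 reads and miR-219b-5p had 25 reads, all in female library 1. miR-3065-3p had 16 reads, all in male library 3. miR-219b-3p and miR-3065-5p, opposite miR-219a-5p and miR-338-3p, had 0 reads in all 6 libraries, which allows levels of up to 0.0505 to 0.203 CPM (3 reads of each total).

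The miRNAs with the most similar profile over the 6 libraries were found by the mean absolute difference of centred log2 CPM, among those that averaged 100 reads or more. Nearest to miR-219a-5p were miR-615-3p at 0.37, miR-301b-5p at 0.41, miR-384-3p at 0.45, miR-20b-5p at 0.47 and miR-29c-3p at 0.47, where the median of 552 miRNAs was 1.12. miR-615-3p, from a Hox cluster, was at 416, 315 and 270 CPM in females 1, 2 and 3 and at 102, 126 and 123 CPM in males 1, 2 and 3. Nearest to miR-338-3p were miR-374b-5p at 0.20, miR-384-3p at 0.22, miR-872-5p at 0.22, miR-340-5p at 0.23 and miR-344e-3p at 0.24, with a median of 0.76 over 553. Among the 5 arms, miR-338-3p lay nearest to miR-219a-2-3p, at 0.36, then at 0.57 from miR-219a-5p, 0.67 from miR-219a-1-3p and 0.94 from its own partner miR-338-5p. Since both profiles were lower in the male libraries, so were those of their neighbours by the way they were picked. The 10 entries were 9 miRNAs, since miR-384-3p was near both arms. Of the 10 entries, 7 had up to 40% G and C in the mature sequence, and 1, miR-615-3p, had over 50%. In the bands above, 28 miRNAs of up to 40% were called higher in females, with 19, 2 and 1 in the bands of rising G and C. The G and C content of neighbours picked for being lower in males is therefore not a separate result.

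Other miRNAs tied to the oligodendrocyte lineage did not move as 1 group. Of 4 linked to differentiation, miR-138-5p was lower in males (log2 fold change −0.99, SE 0.31, edgeR adjusted p = 0.0492). The other 3 did not pass the threshold and differed in direction, with miR-23a-3p at 0.50, miR-23b-3p at 0.56 and miR-32-5p at −3.09. DESeq2 and both fits with RUVr called 3 of the 4, beside 11.8%, 19.9% and 22.4% of all miRNAs. Their sum, 2754 to 3255 CPM in females and 4204 to 5048 CPM in males, was mostly miR-23b-3p, at 1801 ± 185 and 2905 ± 274 CPM (SD, n = 3 each), and miR-23a-3p. The median log2 fold change of the 4 was −0.25, opposite in sign to the change of the sum, against −0.02 over all miRNAs tested.

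Of 12 miRNAs linked to progenitors or to delayed maturation, 5 fell in males, beside 5.27% of all miRNAs tested, and 1 rose, beside 3.21%, with a median log2 fold change of −0.42. Those lower in males were miR-18a-5p (−1.17), miR-19a-3p (−2.50), miR-19b-3p (−1.76) and miR-20a-5p (−0.88), of the miR-17 to miR-92a cluster, and miR-7a-5p (−1.24), with edgeR adjusted p from 4.40e-05 to 0.0205. From the same cluster, miR-17-5p (−0.48, edgeR adjusted p = 0.215) and miR-92a-3p (0.11, edgeR adjusted p = 0.894) did not pass. miR-199a-5p was higher in males (1.90, edgeR adjusted p = 7.64e-05), and it also stands in the mesenchyme list. The sum, of which miR-9-5p was the largest part, was 239719 to 242533 CPM in females and 195975 to 229587 CPM in males.

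The lists of other cell types are set beside the 5.27% of all miRNAs tested that were called lower in males and the 3.21% called higher. In them, 3 of 8 neuronal miRNAs passed the threshold, all lower in males: miR-137-3p, miR-153-3p and miR-218-5p. The highest of that list, miR-129-5p (0.42, edgeR adjusted p = 0.248), did not pass and was higher in every male library than in any female library. miR-10a-5p, miR-10b-5p and miR-615-3p, 3 of 5 Hox cluster miRNAs, passed and were lower in males. Higher in males were 4 of 4 muscle, 5 of 6 epithelial and 4 of 5 mesenchymal miRNAs, and miR-486a-5p, 1 of 3 of red blood cells. The sums of that list, 646 to 1354 CPM in females and 1595 to 1972 CPM in males, were mostly miR-486a-5p, while miR-451a (0.18) and miR-144-3p (−0.97) did not pass. None of 5 miRNAs of leukocytes and microglia passed in edgeR, DESeq2 or either fit with RUVr, and 0 had an unadjusted edgeR p below 0.05, with sums of 201 to 386 against 307 to 426 CPM. No listed miRNA was at 0 in all libraries. The median log2 fold change was −0.68 for the neuronal, −1.63 for the Hox, 2.91 for the muscle, 2.63 for the epithelial, 1.202 for the mesenchymal, 0.18 for the red blood cell and −0.0018 for the leukocyte list. The part of these differences, and of G and C content, in the sex differences of the miR-219a and miR-338 arms was not tested beyond the GC offset.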

How the data were processed

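Small RNA was sequenced from 3 female and 3 male pools of E15.5 brain RNA (TruSeq Small RNA libraries, which carry no molecular identifiers named in the sources used here). The authors trimmed adaptors with cutadapt 1.15, mapped with Bowtie 1.2.1 to miRBase v.21 sequences and mm9 in the miRDeep2 workflow, and deposited raw counts of reads per mature miRNA and library, without normalization. Versions are from the submitters' processing notes. Reads shared by near-identical mature sequences could be assigned to more than 1 name, and ligation and amplification differ between sequences, so levels of different miRNAs compare reads, not molecules in the cell.

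From these counts, CPM of the library total was computed. A miRNA needed 10 reads in total over the libraries to be tested for a sex difference with edgeR 4.0.16 (TMM, quasi-likelihood, R 4.3.3) with Benjamini-Hochberg adjustment over all 1120 and a threshold of 0.05, and log2 fold changes are male over female. The standard error was obtained from the F statistic, as the size of the log2 fold change over its square root. Arm ratios (0.5 reads added) were compared by two-sided exact permutation tests in scipy 1.17.1. Intervals are exact at 95%. Alternatives were library size, upper quartile, DESeq2 1.42.0 (adjusted p-values it leaves empty stayed empty), 1 RUVr factor, written out from deviance residuals, other filters, a loess GC offset (span 0.75, for the 951 miRNAs with a RefSeq sequence), a replicate block, and each library left out. The procedures were tested on simulated data.

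Named were all 5 arms, their opposite-strand relatives, the 5 nearest profiles to miR-219a-5p and to miR-338-3p, and list members past the threshold or lowest or highest of a list. The arms, lists and tests were chosen with earlier results of these data known. The survey of arm ratios over 151 precursors was added after the data were seen.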

Additional observations from a re-analysis of the deposited data

How the results depend on the processing

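The number of miRNAs called was 95 (36 higher in males, 59 in females). It was 223 (114 and 109) with 1 RUVr factor in edgeR, 251 (146 and 105) with it in DESeq2, 59 with the GC offset, 61 with the offset and the replicate block (both on 951 miRNAs, of which the reported fit called 81), and 30 (without male replicate 1) to 203 (without female replicate 2) with each library left out, and 60 without female replicate 3. Library size in place of TMM called 89 but split them 50 and 39, and moved the median log2 fold change from −0.02 to 0.11. No cause was tested. Of 78 alternatives for the 5 arms, 68 kept the direction and the side of the threshold. Of these 68, 13 were kept calls, all of miR-219a-2-3p. The rest were arms that again did not pass or, for miR-338-3p in DESeq2, had no adjusted p. The log2 fold change of miR-219a-5p passed the threshold with DESeq2 (−2.31), 1 RUVr factor (edgeR −2.20, DESeq2 −2.19) and at least 10 reads in every library (−2.39), and ranged from −2.69 to −1.97 with each library left out. miR-338-5p passed with RUVr (0.50 and 0.52). Leave-one-out ranges were −0.97 to −0.85 for miR-219a-2-3p and −0.38 to 0.13 for miR-219a-1-3p, whose sign reversed without female replicate 2 (0.13) and without male replicate 1 (0.06). All 30 alternatives for the arm ratios kept their direction. The sources do not say whether replicate numbers pair the libraries, and they were not treated as pairs in the reported fit. Deviations of the same-numbered libraries correlated at −0.0493, −0.0109 and 0.0456, and those of differently numbered ones at −0.0634 to 0.0705. The replicate block called 92 miRNAs and changed no call among the arms. miR-338-3p had the fewest reads of the 5 arms, 14 to 153 per library.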
